A study of Gallus gallus with 6 samples.

Results

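The genes of the 4 classical guidance systems, Eph receptors with ephrins, plexins with semaphorins, Robo receptors with Slits and Unc5 receptors with netrins, were examined in cells sorted from gastrulating chick embryos. A gene was a member if the symbol of its gene ID in the RefSeq table matched the name pattern of one of 8 families, and where a gene had several probe sets, the brightest by mean log2 signal stood for it. This gave 54 genes with 140 probe sets, out of 13051 genes and 38439 probe sets on the array, and left out 5 genes of these families that had no probe set under the rule (EPHA8, ROBO3, ROBO4, SEMA6C and UNC5A). Hb-eGFP and the ubiquitous pCAGGS-RFP were introduced together by electroporation at HH3, and the embryos were collected at HH5-6 in 3 pools of 4. In Hb-eGFP, a -255 to -204 bp fragment upstream of chick Cerberus is placed before a minimal promoter of human beta-globin, and the pair drives eGFP. Each pool was dissociated and sorted by FACS into eGFP+ cells (Hb-eGFP+, n = 3) and eGFP-/RFP+ cells (RFP+ control, n = 3), so that both groups come from embryos carrying both plasmids and the control is a mixture of electroporated cells of every kind that lacked eGFP fluorescence. One Affymetrix Chicken Genome Array was hybridized per sample, and the values are normalized signal intensities on a linear scale. The study used this comparison to characterize the cells in which the reporter is active, the presumed precursors of yolk sac blood and endothelium.

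Guidance receptors and ligands were named for their action on growing axons, but the same molecules steer mesoderm, neural crest and endothelial cells. Eph receptors are tyrosine kinases that bind ephrins on a neighbouring cell, GPI-anchored ephrins of the A class or transmembrane ephrins of the B class, and they keep cell populations apart at boundaries. Plexins bind semaphorins, and most secreted semaphorins of class 3 need a neuropilin as co-receptor. Slits act on Robo receptors, and netrins act on DCC, neogenin and the Unc5 receptors. In mouse, PLXND1, UNC5B, ROBO4 and EFNB2 are known for roles in developing vessels.

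The sort was checked first. The GFP probe set read 17083 ± 229 after the eGFP+ sort against 926 ± 80.5 in the control (SD, n = 3 each). The control value was well above 117, the 95th percentile of the 56 other reporter probe sets, so GFP signal was not absent from the control. Its source was not tested. TAL1, a regulator of blood formation, was higher in Hb-eGFP+ cells by 1.93 on the log2 scale, and OTX2 of the anterior neuroectoderm was lower (log2 fold change -4.10). All 10 hemangioblast and endothelial markers were higher in Hb-eGFP+ cells. All of them but KDR (log2 fold change 0.41) are on the study's own list of genes higher in these same arrays. Markers of other tissues were lower, namely 7 of 8 neuroectoderm, 6 of 8 paraxial mesoderm, 6 of 7 primitive streak, 4 of 6 endoderm and 4 of 7 ectoderm and epithelium genes, and none of these was higher. Of these, OTX2, MSGN1, DLL1, FOXC2, WNT8A, SOX17, CXCR4 and CDH1 are on the study's list of lower genes. The direction of the genes on these lists was known beforehand and is no independent check of the sort. The lowest value of any probe set was 1, so a reading above 0 does not by itself show expression. Apart from EOMES and TCF15, the markers not called were under 117 in both groups. In Hb-eGFP+ cells FOXC1 (24.9), CXCR4 (34.6), FOXA2 (37.2) and FGF8 (37.5) were at or below the highest array median of 37.8 of the 56 reporter probe sets other than GFP. FOXC1 and CXCR4 read 419 and 461 in control cells. FOXA2 (66.3, not called) and FGF8 (92.5) were under 117 in control cells too, and so dim in both groups. The array medians lay between 87.7 and 91.1.

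Most guidance genes that differed were lower in Hb-eGFP+ cells. Of the 54 genes, 4 passed an adjusted p of 0.05 as higher and 22 as lower (limma, a linear model fitted to all 13051 genes, with Benjamini-Hochberg adjustment). The higher share, 7.41%, stands beside 9.19% of all genes, and the lower share, 40.7%, beside 10.7% of all genes, while the 26 called in either direction stand beside 19.9%. The 4 higher genes were PLXND1, EPHB1, UNC5C and ROBO2, each a receptor and each from a different family. The 22 lower genes were 10 of the 24 receptors and 12 of the 30 ligands, and no ligand was called higher in this fit. Under some of the alternative settings given below, the ligands SEMA3DL, SEMA4B, SEMA7A and NTN4L were called higher. The median log2 fold change was -0.22 over the 54 genes and 0.01 over all genes. In these sorted populations, fewer cells of a type and less RNA per cell cannot be told apart.

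The lower calls were not limited to weak signals. Of the 41 guidance genes with a mean signal above the median of all probe sets, 4 were higher and 19 lower, where 11.1% and 12.7% of all genes above that median were higher and lower. Of the 13 dimmer ones, 3 were lower and none was higher, where 5.31% and 4.1% of all genes at or below that median were lower and higher. On all 3 Hb-eGFP+ arrays 12 guidance genes lay above all 3 control arrays and 24 lay below them, beside 20.6% and 18.8% of all genes. Beside the lower guidance genes, the summed signal of the 8 neuroectoderm markers was 1436 to 1605 in Hb-eGFP+ arrays and 10152 to 10279.6 in control arrays. That of the 8 paraxial mesoderm markers was 1661 to 1855 against 10267 to 10879.9, and that of the 7 primitive streak markers 5934 to 6216 against 9957 to 10529. The 6 endoderm markers summed to 7775 to 8612 against 14819.8 to 16339, and the 7 ectoderm and epithelium markers to 2567 to 2799.7 against 7088 to 7763. Most of the streak sum came from TBXT (mean 5291 against 8004), and most of the endoderm sum from SOX17 (mean 5199 against 10124). The hemangioblast and endothelial markers went the other way, with 36104 to 38311 against 14620.5 to 14792. The part that the tissue make-up of the control plays in the guidance genes was not tested.

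**Figure D1:**
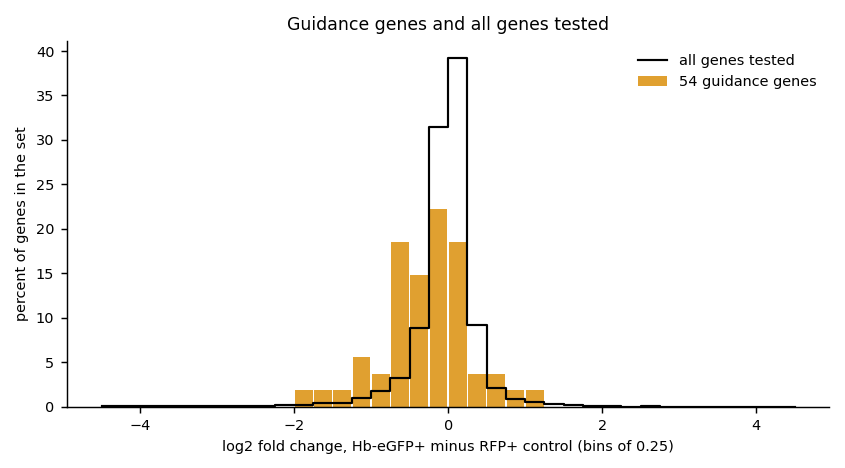
Percent of genes (y axis) in bins of 0.25 of the log2 fold change, Hb-eGFP+ minus RFP+ control (x axis), for the 54 guidance genes (bars) and all 13051 genes tested (line). The guidance genes have a median of -0.22, against 0.01 for all genes.

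Eph receptors were called in both directions. Of 12 measured, 6 were lower (EPHA1, EPHA4, EPHA5, EPHA7, EPHB2 and EPHB3) and 1 was higher (EPHB1). These shares, 50% and 8.33%, stand beside 10.7% and 9.19% of all genes. EPHA7, a receptor for A class ephrins known from the segmented hindbrain and the neural tube, read 92.7, 137 and 124 in the Hb-eGFP+ arrays and 417, 393 and 440.5 in the control arrays. The groups were far apart, with a ratio of control to Hb-eGFP+ of 3.53 (log2 fold change -1.84, standard error (SE) 0.14, adjusted p = 0.00011 from limma). EPHA1, also of the A class, read 317, 309.8 and 330 against 785, 883 and 627. Its control arrays were more spread than its Hb-eGFP+ arrays, without overlap (log2 fold change -1.25, SE 0.12, adjusted p = 0.00037). EPHB2, a receptor for B class ephrins that sorts cells of the mouse intestine, read 412, 490.3 and 429.8 against 873, 911 and 841 (log2 fold change -0.98, SE 0.08, adjusted p = 0.00018). Its further 2 probe sets were not called, at 281 against 272 and 78.6 against 79.3 (log2 fold changes of 0.04 and -0.02).

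EPHB1 was the Eph receptor that rose. It read 465, 467 and 473 in Hb-eGFP+ cells and 267, 243 and 316 in control cells, 1.7 times as much (log2 fold change 0.77, SE 0.10, adjusted p = 0.0016 from limma). Its Hb-eGFP+ arrays were close together and all above the control arrays. The second, dimmer EPHB1 probe set read 112 against 119 and was not called (adjusted p = 0.65 over all probe sets). The remaining lower receptors changed less. EPHA5 fell by 0.62 on the log2 scale, but its second, dimmer probe set was not called (53.4 against 55.2, log2 fold change -0.05). EPHB3 was lower at 957 ± 142 against 1392 ± 181 (SD, n = 3 each, log2 fold change -0.54, adjusted p = 0.026). Leaving out Hb-eGFP+ replicate 1, Hb-eGFP+ replicate 3 or RFP+ control replicate 3 ended the EPHB3 call (adjusted p of 0.065 to 0.091). EPHA4, a receptor that binds ephrins of both classes, read 36.1 against 48.4, near the reporter probe sets, and its call was lost without Hb-eGFP+ replicate 1 (adjusted p = 0.054).

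The other 5 Eph receptors, EPHA2, EPHA3, EPHA6, EPHA10 and EPHB6, were not called and had log2 fold changes between -0.08 and 0.14. The 95% interval was -0.26 to 0.10 for EPHA3 and -0.21 to 0.11 for EPHA6. EPHA6 had a dim further probe set that was lower (31.8 against 49.2, adjusted p = 0.042 over all probe sets).

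Among the 4 ephrins, 1 member of each class was lower (50%, beside 10.7% of all genes). EFNA5, a GPI-anchored repellent of the retinotectal map, read 658, 649 and 684 in Hb-eGFP+ cells and 1225, 1065 and 935 in control cells (log2 fold change -0.69, SE 0.10, adjusted p = 0.0032 from limma). None of its 4 further probe sets, all with group means of 99.7 or less, was called, and with the mean over its probe sets the change was -0.18 (adjusted p = 0.18). EFNB2, which marks arteries in mouse and chick, read 29.4, 27.9 and 30.6 against 55.5, 49.6 and 52.4 (log2 fold change -0.84, SE 0.07, adjusted p = 0.00021). Its Hb-eGFP+ signal lay under 31.9, the lowest array median among reporter probe sets, a level at which the fold is imprecise. EFNB1, a transmembrane ligand of EPHB receptors, read 3092 ± 42.7 against 3194 ± 140 (SD, n = 3 each) and was not called (log2 fold change -0.05, 95% interval -0.20 to 0.11), nor was any of its 3 further probe sets. EFNA2 was also not called (0.10, 95% interval -0.06 to 0.25). EPHB1 and EPHB2, which both bind B class ephrins, were called in opposite directions, each by 1 probe set with no further one called.

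**Figure D2:**
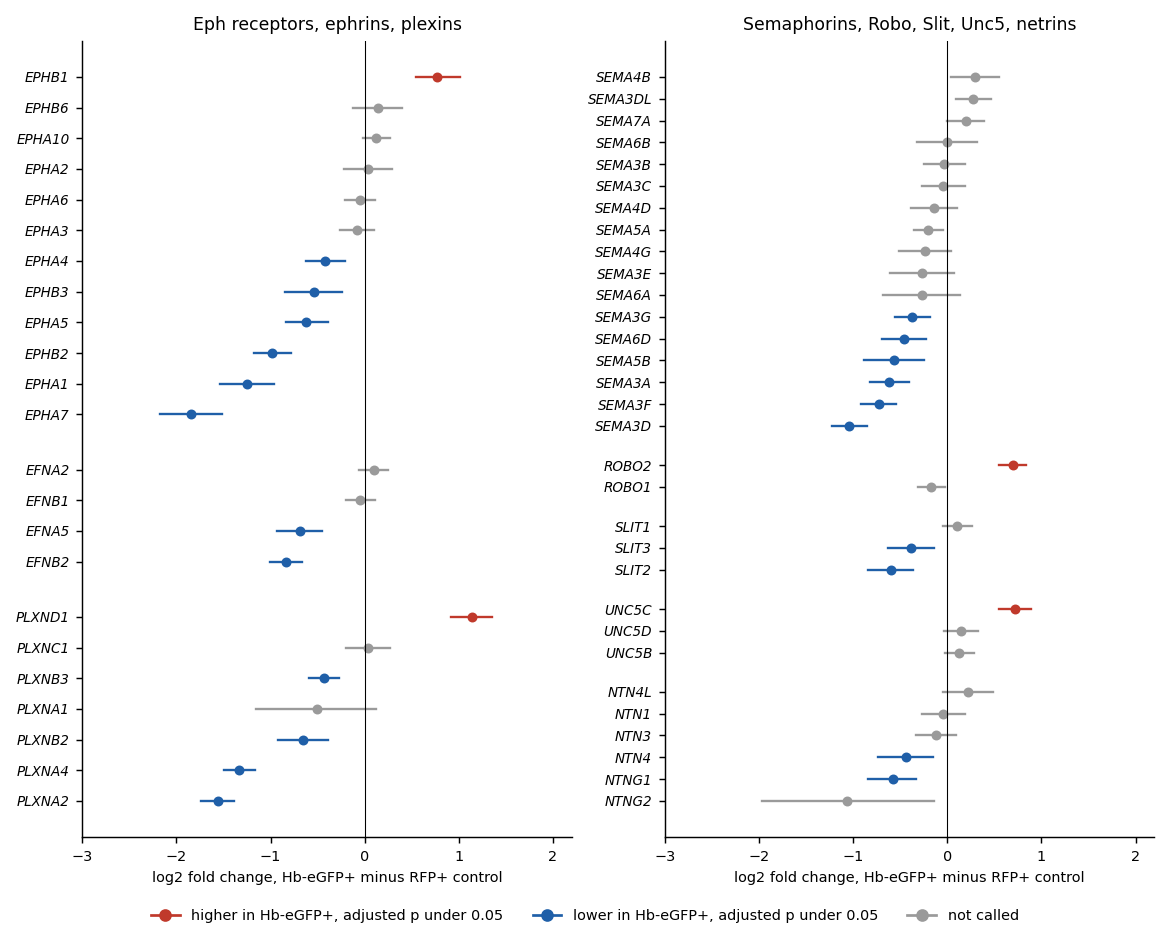
Log2 fold change (x axis, Hb-eGFP+ minus RFP+ control) of each of the 54 guidance genes by its representing probe set, with 95% intervals from limma, grouped by family. The 4 higher genes, PLXND1, EPHB1, ROBO2 and UNC5C, lie to the right of zero with their whole intervals, and the lowest values are those of EPHA7 (-1.84), PLXNA2 (-1.56) and PLXNA4 (-1.33).

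Plexins held some of the largest changes in both directions. PLXND1, the plexin of endothelium that binds SEMA3E and restrains vessel growth in mouse, read 1336, 1132 and 1131 in Hb-eGFP+ cells and 508, 577 and 549.9 in control cells. Every Hb-eGFP+ array was above every control array, 2.2 times as much (log2 fold change 1.14, SE 0.09, adjusted p = 0.00014 from limma). The second PLXND1 probe set was dim, at 55.2 against 65, and was not called (log2 fold change -0.25, adjusted p = 0.39 over all probe sets). With the mean over both probe sets the increase was 0.45, still called (adjusted p = 0.0058).

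Of the 3 A class plexins, which pair with neuropilins or bind class 6 semaphorins directly, PLXNA2 and PLXNA4 were lower (66.7%, beside 10.7% of all genes). PLXNA2 read 1158, 1251 and 1117 in Hb-eGFP+ cells and 3616, 3511 and 3294 in control cells, control exceeding Hb-eGFP+ 2.96 times (log2 fold change -1.56, SE 0.07, adjusted p = 1.0e-05 from limma). All 4 probe sets of PLXNA2 were lower, with log2 fold changes of -1.28 to -1.68. PLXNA4 read 207, 214 and 219 against 510.4, 545 and 558, also without overlap (log2 fold change -1.33, SE 0.07, adjusted p = 1.5e-05), and 1 of its 4 further probe sets was lower as well (-1.11). The other 3 were not called (-0.03, -0.06 and 0.54), and with the mean over its probe sets the PLXNA4 change was -0.40, still called (adjusted p = 0.020). PLXNA1 was more variable, with 674, 1315 and 1076 against 1102, 1341 and 1883. Its groups overlapped and it was not called (log2 fold change -0.51, 95% interval -1.15 to 0.12). Of the B class, PLXNB2 was lower by 1 of its 3 probe sets (98.5 against 154, log2 fold change -0.65, adjusted p = 0.0061), which the mean over its probe sets did not call (adjusted p = 0.26), and PLXNB3 fell by 0.43 on the log2 scale (adjusted p = 0.0046). PLXNC1, the receptor of SEMA7A, read 1032 against 1012 (log2 fold change 0.04, 95% interval -0.20 to 0.27).

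Of 17 semaphorins, 6 were lower and none was higher (35.3% and 0%, beside 10.7% and 9.19% of all genes). Of the 8 secreted ones of class 3, SEMA3A, SEMA3D, SEMA3F and SEMA3G were lower (50%, beside 10.7% of all genes). SEMA3D had the largest change of the family, with 135, 131 and 138 in Hb-eGFP+ cells and 265, 262 and 303 in control cells (log2 fold change -1.04, SE 0.08, adjusted p = 1.0e-04 from limma), and a second probe set was lower too (82.2 against 139). SEMA3F, a ligand of the neuropilin NRP2, was lower at 194 ± 13.1 against 322 ± 19.7 (SD, n = 3 each, log2 fold change -0.73, adjusted p = 0.00070). SEMA3A, the axon repellent that binds NRP1, was lower at 412 ± 28.8 against 633 ± 52.4 (log2 fold change -0.62, adjusted p = 0.0026). SEMA3G was lower by 0.37 (adjusted p = 0.017), by 1 of its 5 probe sets, and leaving out Hb-eGFP+ replicate 3, RFP+ control replicate 1 or RFP+ control replicate 2 ended the call (adjusted p of 0.057 to 0.062), as did the mean over its probe sets (adjusted p = 0.12).

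SEMA3E, the ligand of PLXND1, read 26.8 against 31.9, at or below the reporter probe sets in both groups, and was not called (adjusted p = 0.24). SEMA3B and SEMA3C read 69.8 to 72 in both groups and were not called. SEMA3DL was at 242 against 201 and just missed the threshold (log2 fold change 0.27, adjusted p = 0.051). SEMA3DL passed under 7 alternatives. Leaving out RFP+ control replicate 1 (adjusted p = 0.030) or centring the arrays on their medians (adjusted p = 0.034) brought it past, for example.

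Of the 9 membrane-bound semaphorins of classes 4 to 7, SEMA5B and SEMA6D were lower (22.2%, beside 10.7% of all genes). SEMA6D, a class 6 ligand of A class plexins, read 532 ± 64.6 against 730.4 ± 32.5 (SD, n = 3 each, log2 fold change -0.46, adjusted p = 0.016 from limma), and 2 of its 3 further probe sets were lower as well. Its call was lost without Hb-eGFP+ replicate 1 (adjusted p = 0.055). SEMA5B was at 399.8 ± 31.2 against 597 ± 104 (log2 fold change -0.57, adjusted p = 0.025). Leaving out any array but RFP+ control replicate 3 ended that call, including Hb-eGFP+ replicates 1, 2 and 3 and RFP+ control replicates 1 and 2 (adjusted p of 0.054 to 0.076), although a further SEMA5B probe set was lower (-0.68, adjusted p = 0.0019 over all probe sets). SEMA4B was at 2303 against 1866 and was not called (log2 fold change 0.30, adjusted p = 0.10). SEMA6A, a class 6 ligand known to bind PLXNA2 and PLXNA4, was not called by its representing probe set (56.9 against 70.3). A dimmer SEMA6A probe set was lower (28.3 against 62.4, adjusted p = 0.0069 over all probe sets). All 4 SEMA6A probe sets were dim, with log2 fold changes of -0.26 to -1.18, and the mean over them was called lower. SEMA6B, also of class 6, read 87.8 against 88.2 and was not called (adjusted p = 0.99).

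**Figure D3:**
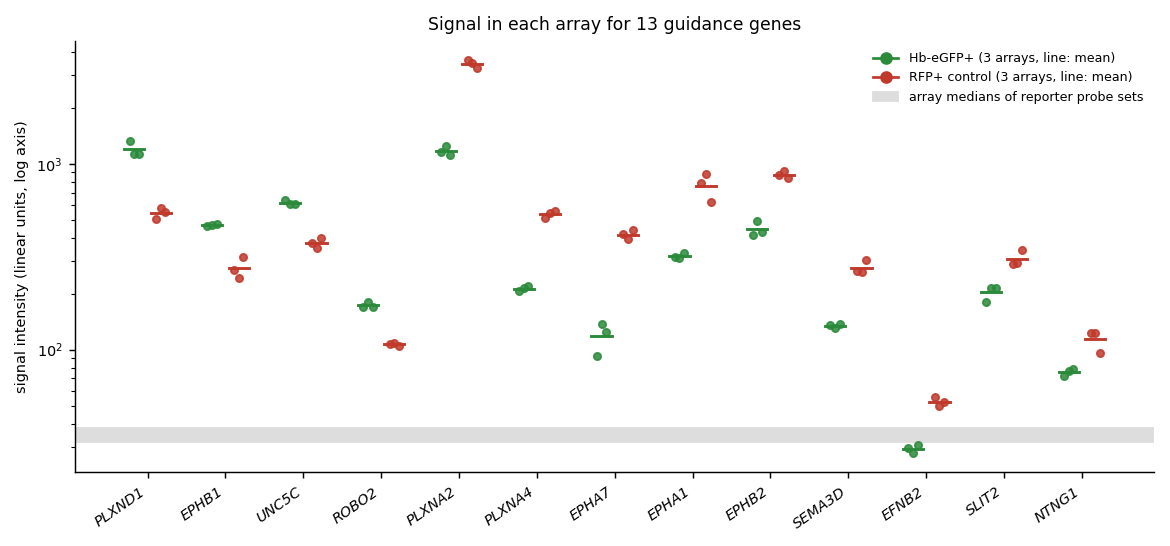
Signal intensity in each array (y axis, log scale) for 13 guidance genes, with 3 Hb-eGFP+ arrays in green, 3 RFP+ control arrays in red and a line at each group mean. The Hb-eGFP+ arrays lie above the control arrays for PLXND1, EPHB1, UNC5C and ROBO2 and below them for the other 9 genes, and the Hb-eGFP+ signal of EFNB2 lies below the grey band of the reporter probe sets (31.9 to 37.8).

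The Slit receptor ROBO2 rose, and 2 of the 3 Slit ligands were lower (66.7%, beside 10.7% of all genes). ROBO2 read 170.1, 179.6 and 170.5 in Hb-eGFP+ cells and 107, 108 and 105 in control cells, with little spread in either group (log2 fold change 0.70, SE 0.06, adjusted p = 0.00023 from limma). Of its 4 further probe sets, 3 were higher as well, by 0.38 to 0.54, so that ROBO2 was the one higher guidance gene with a second probe set called in its direction. These 3 were dim, at 115 against 78.8, 87.4 against 67.1 and 42.1 against 31.4. All lay under 117, the 95th percentile of the reporter probe sets. ROBO1 was dim, at 64.6 against 72.4, and was not called (log2 fold change -0.17, adjusted p = 0.10), whereas 1 of its 5 further probe sets, dimmer still, was lower (17.7 against 26.1, adjusted p = 0.0067 over all probe sets). SLIT2 read 181, 215 and 214 against 291, 292 and 343 (log2 fold change -0.60, SE 0.10, adjusted p = 0.0057). SLIT3 was lower at 473 ± 46.5 against 617 ± 61.9 (SD, n = 3 each, log2 fold change -0.38, adjusted p = 0.041), but the call was lost after quantile normalization (adjusted p = 0.053) and with the mean over its probe sets (adjusted p = 0.17). Leaving out Hb-eGFP+ replicate 1, Hb-eGFP+ replicate 3, RFP+ control replicate 1 or RFP+ control replicate 3 ended it too (adjusted p of 0.088 to 0.12). Its next probe set fell by 0.54 (adjusted p = 0.0080 over all probe sets). SLIT1 was not called (0.10, 95% interval -0.05 to 0.26).

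Of the netrin receptors, UNC5C was higher. UNC5C, which acts in the repulsion of axons by netrin, read 641, 607 and 607 in Hb-eGFP+ cells and 374, 353 and 401 in control cells (log2 fold change 0.72, SE 0.07, adjusted p = 0.00045 from limma). The groups did not overlap, and the second, dimmer UNC5C probe set was not called (96.3 against 84). UNC5B, the receptor known from endothelial tip cells in mouse, read 2093, 2011 and 2022 against 1868, 1929 and 1799. Its arrays did not overlap either, but the difference was small and not called (log2 fold change 0.13, 95% interval -0.02 to 0.28, adjusted p = 0.20), and its second probe set went the other way (-0.13). UNC5D was not called (0.15, 95% interval -0.03 to 0.33).

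The netrins themselves were mostly dim. NTN1, the founding ligand of DCC and Unc5 receptors, read 89.4 against 91.6 and was not called (log2 fold change -0.04, 95% interval -0.27 to 0.19). NTNG1, a GPI-anchored netrin-G that binds other receptors than the classical netrins, read 71.7, 76.6 and 78.2 in Hb-eGFP+ cells and 123, 123 and 95.6 in control cells (log2 fold change -0.58, SE 0.11, adjusted p = 0.0092 from limma). A further NTNG1 probe set was not called (70.2 against 66.1, log2 fold change 0.09). Another was lower but read only 6.96 against 12.5, below the reporter probe sets. NTN4, a netrin of basement membranes, was lower by 0.44 with an adjusted p of 0.046. This call was lost without any 1 of Hb-eGFP+ replicates 1, 2 and 3 and RFP+ control replicates 1 and 2 (adjusted p of 0.083 to 0.11) with an offset of 50 added before log2 (adjusted p = 0.051), and with the mean over its probe sets (adjusted p = 0.25). NTNG2 had the largest difference without a call, at 279.6, 462 and 276 against 1263, 602 and 420.4, where RFP+ control replicate 1 was far above the others (log2 fold change -1.06, 95% interval -1.97 to -0.14, adjusted p = 0.10). Without RFP+ control replicate 3 it was called (adjusted p = 0.046). The 2 further NTNG2 probe sets were not called (log2 fold changes of 0.08 and -0.07). With the mean over its probe sets the NTNG2 change was -0.35 and not called (adjusted p = 0.16). NTN3 and NTN4L were not called.

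Only some of these changes were large. With a fold of at least 1.7 as well, 2 guidance genes were higher (PLXND1 and EPHB1, beside 1.75% of all genes) and 7 were lower (EPHA1, EPHA7, EPHB2, EFNB2, PLXNA2, PLXNA4 and SEMA3D, beside 3.48% of all genes). A further rule was modelled on that of the study's methods, a lower 90% bound of the ratio of group means above 1.7. The bound was taken here from the spread between arrays, not from dChip. By it, PLXND1 passed among the higher genes (bound 1.96, beside 1.28% of all genes). Among the lower genes 6 passed, beside 2.15% of all genes. They were EPHA7 (2.96), PLXNA2 (2.75), PLXNA4 (2.39), EPHA1 (2.01), SEMA3D (1.88) and EPHB2 (1.80), with the bound for the ratio of control to Hb-eGFP+ cells in parentheses. EFNB2 stayed just under it, with a bound of 1.67.

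Over the 140 probe sets, 7 passed as higher and 32 as lower, beside 4.02% and 5.05% of all 38439 probe sets. Of the 26 called genes, 17 had further probe sets, and in 8 of these at least 1 further probe set was called in the same direction, while none was called in the opposite one. With p-values adjusted over all probe sets, the representing probe sets of EPHB3, NTN4 and SLIT3 were no longer called. PLXNA2 and ROBO2 each had 3 such further probe sets. PLXND1, EPHB1, UNC5C, EPHB2, EFNA5, EPHA5, PLXNB2, SEMA3G and NTN4 rested on 1 probe set with others not called. With the mean over probe sets, changes that stayed called were smaller for EPHB1 (0.35), UNC5C (0.46), ROBO2 (0.43), EPHB2 (-0.32), EPHA5 (-0.33), SEMA3D (-0.68) and SEMA5B (-0.32). With an offset of 50, those of the dim EFNB2 (-0.37), EPHA4 (-0.19) and NTNG1 (-0.38) were smaller and stayed called. Of the 54 genes, 17 had both group means at or under 117, the 95th percentile of the reporter probe sets, and of these EFNB2, EPHA4, NTN4 and NTNG1 were called. Among the other called genes, EPHA5, PLXNB2 and ROBO2 had the lower group's mean at or under 117.

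**Figure D4:**
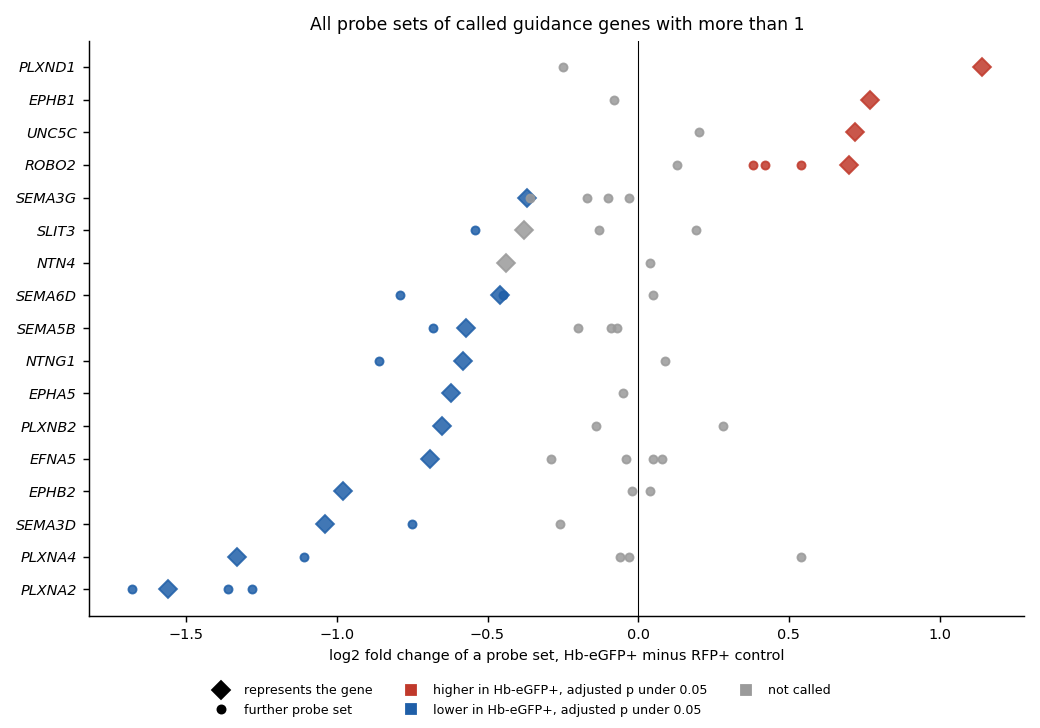
Log2 fold change (x axis, Hb-eGFP+ minus RFP+ control) of every probe set of the 17 called guidance genes with more than 1, where diamonds mark the probe set that represents the gene, circles mark further ones and colours mark the call over all 38439 probe sets. All 4 probe sets of PLXNA2 are lower and 4 of 5 of ROBO2 are higher, whereas the further probe sets of PLXND1, EPHB1 and UNC5C, and the representing ones of SLIT3 and NTN4, are not called over all probe sets.

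Co-receptors and intracellular partners of these receptors were counted from a separate list. Of 84 measured genes, 10 were higher and 17 lower (11.9% and 20.2%, beside 9.19% and 10.7% of all genes), with a median log2 fold change of -0.05. The 10 higher became 6 without Hb-eGFP+ replicate 1 and 5 without Hb-eGFP+ replicate 3. The higher share of all genes also went down in these fits, from 9.19% to 5.88% and 5.69%. Of 11 co-receptors and alternative receptors, 4 were lower and none was higher (36.4% and 0%, beside 10.7% and 9.19% of all genes). The neuropilins NRP1 and NRP2, which bind class 3 semaphorins, were not called (log2 fold changes -0.36 with adjusted p = 0.058 and -0.14 with adjusted p = 0.39 from limma), nor was the netrin receptor gene NEO1 (-0.29, adjusted p = 0.086). DCC had no measured gene under that symbol. LRIG3, a leucine-rich repeat membrane protein that acts against netrin-1 expression in the mouse inner ear, was lower at 195 against 781 (log2 fold change -2.00, adjusted p = 5.4e-06). FLRT3, an adhesion protein that binds Unc5 receptors, was lower at 366 against 1109.7 (log2 fold change -1.61, adjusted p = 2.4e-05).

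Among the 57 signal transducers, 8 were higher and 9 lower (14% and 15.8%, beside 9.19% and 10.7% of all genes). Their median log2 fold change was 0.01. With a fold of at least 1.7 as well, 0 were higher and 4 lower, beside 1.75% and 3.48% of all genes. FYN, a Src family kinase that acts below Eph receptors and plexins, was higher at 3269.8 ± 178 against 1947 ± 90.5 (SD, n = 3 each, log2 fold change 0.75, adjusted p = 0.00036 from limma). MICAL1, an actin-oxidizing enzyme that acts below plexins, was higher by 0.53 (adjusted p = 0.0015). Of 16 other ligands and modulators, 2 were higher and 4 lower (12.5% and 25%, beside 9.19% and 10.7% of all genes). RGMB, a ligand of neogenin and a BMP co-receptor, was higher at 254 against 170.1 (log2 fold change 0.58, adjusted p = 0.0017). The lists of markers and of partners share no gene with the 54.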

How the data were processed

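Each sample of 40 ng total RNA was labelled in 2 cycles and hybridized to 1 array. Images were read in GCOS 1.4 according to the submitters' processing notes. The values deposited by the authors are dChip expression indices from Perfect Match probes, a linear intensity per probe set, normalized over the 6 arrays. For the dChip normalization and background treatment, details are not given in the sources used here. Their precision is limited because the number of arrays is small.

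Values below 1 would have been set to 1 (none was) before log2. The comparison used limma (lmFit, then eBayes, two-sided, with group alone in the model) over 13051 genes, and over 38439 probe sets for further probe sets, at an adjusted p of 0.05. The lower bound is that of a 90% interval of the ratio of linear group means, from the spread between arrays instead of dChip's errors. It uses a normal quantile, which takes no account of the small number of arrays. The scripts were first tested on simulated data with known changes. Names come from the platform annotation joined to RefSeq genes of GRCg7b, where 26853 of 27168 one-gene probe sets matched. Which samples came from 1 pool is not given, and the figure legend of the study names another fragment of the reporter than the labels do.

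Members and lists were chosen with earlier results of these data known. Values per array are given for called members with a fold of at least 1.7 and for the called member with the smallest adjusted p per family and direction. Per-array values of EFNA5, NTNG2, PLXNA1 and UNC5B, and further uncalled genes, were added after their values were seen. Of the partner list, the 3 genes with the smallest adjusted p per direction and NRP1, NRP2, DCC and NEO1 are named, except 1 lower gene that is not reported here. The alternatives tried were centring on array medians, quantile normalization, leaving out dim probe sets, adding an offset of 50, an intensity trend with robust variances, a replicate block, the mean over probe sets, a minimum fold of 1.7, a 95% interval or none for the bound, and each array left out. R 4.3.3, limma 3.58.1 and Python 3.11.15 were used.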

Additional observations from a re-analysis of the deposited data

How the results depend on the processing

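Of the 26 called guidance genes, 17 stayed called under each of the 13 alternatives other than the minimum fold that could be computed for them, 9 were lost under at least 1 (7 of them without 1 array), and none changed sign. Testing against a minimum fold of 1.7 left 0 guidance genes higher and 3 lower (EPHA7, PLXNA2 and PLXNA4), 0 partner genes higher and 3 lower, and 82 of all genes higher and 162 lower in place of 1200 and 1396. With the ratio alone in place of its lower bound, 2 guidance genes were higher. Over the fits without 1 array, 4 to 5 guidance genes were higher and 16 to 21 lower, 5 to 11 partner genes higher and 12 to 17 lower, and 1 to 1 guidance genes past the lower bound higher and 6 to 7 lower. Over all genes, leaving out Hb-eGFP+ replicate 1 gave 767 higher, Hb-eGFP+ replicate 3 gave 742 higher with 921 lower, and RFP+ control replicate 1 gave 796 higher.

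Signs turned only among the 28 uncalled genes, in 9 of them, and none of the turned values was called, while 7 of the 28 were called under some alternative. With the mean over probe sets the log2 fold change was 0.03 for EFNB1, 0.04 for SEMA3C, 0.04 for SEMA4G and 0.08 for SEMA5A, and for SEMA6B it was 0.01 both after quantile normalization and with centred arrays. Without 1 array it ranged from -0.06 to 0.14 for EPHA2, -0.13 to 0.05 for NTN1, -0.07 to 0.10 for PLXNC1, -0.12 to 0.04 for SEMA3B, -0.13 to 0.04 for SEMA3C and -0.11 to 0.12 for SEMA6B. The cause was not tested.

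Deviations from the group means, over all probe sets, had correlations of -0.12, -0.05 and 0.10 between samples with the same replicate number. Samples with different numbers had correlations of -0.15 to 0.19. With 3 centred arrays a group, these values cannot show whether the numbers mark pools. The labels do not say so, and the numbers were not read as pairs. With the replicate block, 4 guidance genes were higher and 19 lower, with EPHB3 (adjusted p = 0.062), NTN4 (0.082) and SLIT3 (0.097) no longer called, and 896 of all genes were higher and 1106 lower. Small differences of dim probe sets could not be resolved with 3 arrays a group.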

Other observations

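The probe set that the platform annotation names ROBO4 lies outside the rule, because its gene ID had no match in the RefSeq table used. It read 75.6 in Hb-eGFP+ cells and 69.4 in control cells and was not called (log2 fold change 0.13, adjusted p = 0.39 from limma).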
